A study of Homo sapiens with 8 samples.

Results

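The cell cycle engine was taken as 60 genes, a selection and not the full families, drawn from the cyclins, the cyclin-dependent kinases (CDKs) and their inhibitors, the factors that license and fire replication origins, and the kinases, phosphatases and checkpoint proteins of mitosis. A gene was counted as carrying a PML::RARA peak at its promoter when its symbol stood in the gene column of the deposited peak list. By this rule 48 of the 60 genes carried at least 1 labelled peak, in 56 of the 7169 gene-labelled peaks, and 12 genes carried none. The list held 15412 peaks in all, of which 8243 had no gene label. The other 7113 labelled peaks were the comparison set throughout.

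PML::RARA, the fusion protein of acute promyelocytic leukemia, was mapped by Cut&Run, in which a nuclease tethered to an antibody releases the DNA around the bound protein, in U937-PR9 cells, a human monocytic line with a PML::RARA transgene under a zinc-inducible promoter. Cells were given 100 µM ZnSO4, or sterile water as the uninduced control, and kept for 5 h, so that zinc and the fusion protein differed together between the conditions and cannot be told apart. Antibodies to the fusion protein and to RARA were each used on both conditions in 2 replicates, giving 8 libraries in 4 groups. The list analysed here belonged to the induced libraries of the antibody to the fusion protein, was called against the uninduced libraries, and gave a single height and width for each peak, with no value for a replicate, an uninduced cell or the RARA antibody. Depth was therefore unknown, no replicate error could be attached to a single peak, and the standard errors and 95% Wilson intervals given below cover only the number of peaks counted. The line is a single model, and its karyotype is described by the study as complicated. Because the list held binding and no expression, neither the level of any of these genes nor the monocytic identity of the line could be checked in it.

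Passage through the cell cycle is driven by cyclins, which rise and fall, and by the CDKs they activate. D-type cyclins with CDK4 or CDK6, and then cyclin E with CDK2, inactivate the RB family and release E2F factors, which switch on genes for DNA replication. The MCM helicase is loaded on origins by CDC6 and CDT1 in G1, and CDC7 and CDK2 fire it in S phase. Cyclin A and then cyclin B with CDK1 carry cells into mitosis, where the spindle checkpoint holds back CDC20 and the anaphase promoting complex until chromosomes are attached. Late cell cycle genes are known for a promoter element called the CHR, often found with CCAAT boxes, at which the MuvB complexes bind. PML::RARA keeps the DNA-binding domain of the retinoic acid receptor, which recognizes paired hexamers.

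The DNA under the apex, the midpoint of the stretch with the largest signal in a peak, is shown for the genes on which the results turn, as 121 bases of the plus strand of hg19 read from 5′ to 3′. Capitals mark words of 6 motif families, searched on both strands: E2F (TTTCCCGC or TTTGGCGC or TTTCGCGC), the CHR (TTTGAA or TTCGAA), the CCAAT box (CCAAT), the GC box (GGGCGG), ETS (GGAAGT or AGGAAG, which can overlap) and the retinoid hexamer (AGGTCA or GGGTCA or AGTTCA or GGTTCA), the receptor's recognition unit. The first set holds the highest peak (CDC25A, chr3:48230005-48230125), the widest peak (CCND3, chr6:41906038-41906158), a peak among the 3 highest and the 3 widest (CDK5, chr7:150755066-150755186) and cyclin A1, a gene the study follows (CCNA1, chr13:37006415-37006535).
CDC25A: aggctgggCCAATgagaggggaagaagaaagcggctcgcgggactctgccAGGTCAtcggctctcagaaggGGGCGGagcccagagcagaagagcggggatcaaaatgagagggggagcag
CCND3: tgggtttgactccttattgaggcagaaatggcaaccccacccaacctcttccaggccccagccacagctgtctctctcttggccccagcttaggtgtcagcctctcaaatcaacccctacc
CDK5: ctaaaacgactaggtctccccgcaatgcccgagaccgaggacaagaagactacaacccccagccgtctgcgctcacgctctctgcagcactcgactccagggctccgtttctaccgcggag
CCNA1: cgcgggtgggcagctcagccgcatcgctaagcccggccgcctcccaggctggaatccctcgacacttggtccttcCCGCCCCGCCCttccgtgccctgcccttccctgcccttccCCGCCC
Within these 121 bases, CCND3 and CDK5 held no word of any of the 6 families and CCNA1 held GC boxes alone. CDC25A held a CCAAT box, a retinoid hexamer and a GC box. The wider windows of 401 bp counted below held more. There CCND3 had ETS words, CDK5 a GC box and an ETS word, CCNA1 also a CCAAT box and CDC25A also an E2F word.

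The second set shows 2 licensing genes with E2F words, the helicase loader CDT1 (chr16:88870063-88870183) and the helicase subunit MCM6 (chr2:136634041-136634161).
CDT1: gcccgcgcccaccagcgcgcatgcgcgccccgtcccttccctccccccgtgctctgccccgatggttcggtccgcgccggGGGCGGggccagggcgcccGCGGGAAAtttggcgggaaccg
MCM6: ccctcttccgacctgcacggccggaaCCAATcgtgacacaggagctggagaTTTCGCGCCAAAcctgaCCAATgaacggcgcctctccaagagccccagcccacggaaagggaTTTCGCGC
In MCM6 the words TTTCGCGC and, on the other strand, TTTGGCGC overlapped, and a further TTTCGCGC ended the window. The third set shows 3 genes with a CHR word, the activator of the anaphase promoting complex CDC20 (chr1:43824491-43824611), cyclin F (CCNF, chr16:2479199-2479319) and the CDK1-activating phosphatase CDC25B (chr20:3776818-3776938).
CDC20: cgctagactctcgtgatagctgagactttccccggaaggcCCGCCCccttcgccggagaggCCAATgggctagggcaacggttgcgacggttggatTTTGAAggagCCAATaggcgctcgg
CCNF: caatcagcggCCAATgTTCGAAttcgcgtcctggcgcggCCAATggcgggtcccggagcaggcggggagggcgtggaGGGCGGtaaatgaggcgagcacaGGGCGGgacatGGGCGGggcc
CDC25B: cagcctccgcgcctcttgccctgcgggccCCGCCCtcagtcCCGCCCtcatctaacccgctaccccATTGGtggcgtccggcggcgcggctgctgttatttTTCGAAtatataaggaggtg
In all 3 the CHR word lay in the same window as at least 1 CCAAT box. These 3 are picked examples, and some other peaks with a CHR word, such as those of WEE1 and BUB1B, had no CCAAT box within 200 bp of the apex.

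The first question was how many of these promoters carried the fusion protein. The 48 labelled genes were 80.0% of the 60, where 29.9% of the 20149 protein-coding genes of the annotation carried a labelled peak. Counting instead any gene with an apex within 1 kb of one of its start sites, whatever the label, gave 52 of 60 genes (86.7%), against 39.2% of protein-coding genes. The 60 genes were not drawn at random, and U937-PR9 is a dividing line, so the share describes these genes and no test was attached to it. Shares for 4 further lists of related genes, none of them among the 60, were 11 of 18 genes of origin recognition and replisome loading (61.1%), 15 of 23 of the anaphase promoting complex and SCF (65.2%), 16 of 26 of the kinetochore, passenger complex and cohesin (61.5%), and 7 of 21 remaining cyclin and CDK family genes (33.3%).

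Labels were spread over the whole cycle. All 5 G1 genes (CCND1, CCND2, CCND3, CDK4, CDK6) and all 3 S and G2 cyclins (CCNA1, CCNA2, CCNF) had one. In the G1/S group 3 of 4 genes did, in licensing and origin firing 8 of 9, in G2/M entry 8 of 9, and in the spindle checkpoint and anaphase group 6 of 7. The CDK inhibitors had 4 of 6 and the remaining cyclins and kinases 5 of 6. The cyclins and CDKs that act on RNA polymerase II had the lowest share, 6 of 11. In that group CCNK and CCNT2 lacked a label although a peak labelled with another gene covered a start site.

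As a set, these peaks were slightly higher and wider than the other labelled peaks. Height, the largest signal within a peak in the units of the deposited list, had a median of 27.5 (quartiles 22.75 and 40.25, range 16 to 65) over the 56 peaks and of 26 (20 and 35, range 13 to 86) over the other 7113. The mean log2 height was 0.15 above that of the others (standard error over peaks 0.076), a factor of 1.11. Width had a median of 1200 bp (quartiles 946 and 1806.5, range 335 to 4823) against 1108 bp (768 and 1538, range 77 to 7313), and the mean log2 width was 0.23 higher (standard error 0.11), a factor of 1.18. Both differences were well under the standard deviation among the peaks, which was 0.57 for log2 height and 0.85 for log2 width. The standard errors treat the peaks, some of them of the same gene, as independent and are no test of these differences. Height rises with width in this list (Spearman's rho 0.449 over the others and 0.244 over the 56, peaks of one list sharing its libraries). All labelled peaks were therefore ranked by width and cut into 10 classes with near-equal numbers of peaks. Within these classes the difference in log2 height was 0.093, with the 56 higher in 8 of the 10 classes.

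The upper tails were then compared. A height above 50, the mark passed by 4.71% of the other peaks, was reached by 9 of the 56 peaks (16.1%, 95% interval 8.69 to 27.8). Above the upper quartile of 35 there were 17 of 56 (30.4%, 19.9 to 43.3), against 23.1% of the others. For width, 7 of 56 (12.5%, 6.19 to 23.6) passed the mark that 5% of the others passed, and 19 of 56 (33.9%, 22.9 to 47.0) passed the upper quartile of 1538 bp, against 25% of the others. These marks were chosen after the values had been seen. The 9 highest peaks belonged to CDC25A, CDK13, CDK5, CCND3, CDK9, CDK4, CCNT1, PLK3 and CDKN2D, and none of the 30 peaks of the licensing, S and G2, G2/M and spindle groups was among them. Those 30 peaks had heights of 16 to 46 with a median of 26, and the 26 peaks of the other 5 groups had heights of 16 to 65 with a median of 30.5. These pools of groups were formed after the values had been seen, and their group medians overlapped. In the first they were 32 for licensing, 23 for S and G2, 26 for G2/M entry and 26 for spindle. In the second they were 29 for G1, 22 for G1/S, 29 for CDK inhibitors, 26 for the transcription group and 45 for the remaining cyclins and kinases.

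**Figure D1:**
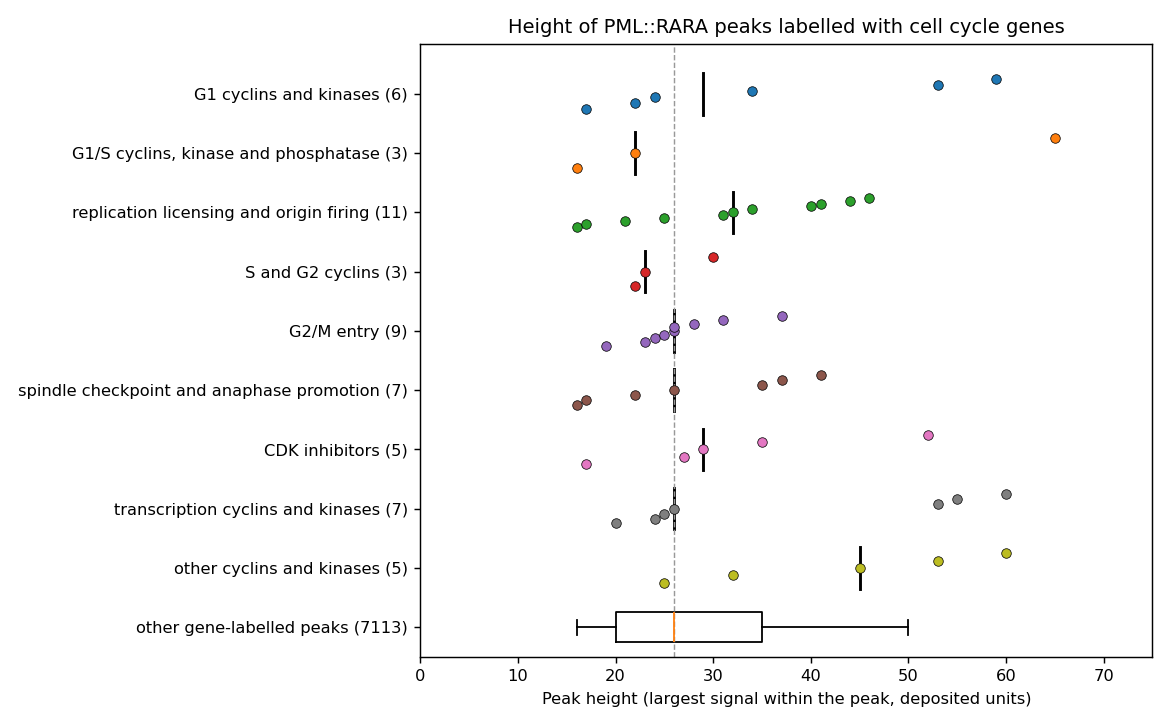
Peak height (x axis, deposited units) of the 56 peaks labelled with cell cycle genes, by function group (y axis, number of peaks in parentheses); each point is a peak and the black bar the group's median. The box shows the quartiles and median of the other 7113 labelled peaks, with whiskers at the marks that 5% of them fall below and above; 9 peaks lie above 50, none of them in the licensing, S and G2, G2/M or spindle groups.

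**Figure D2:**
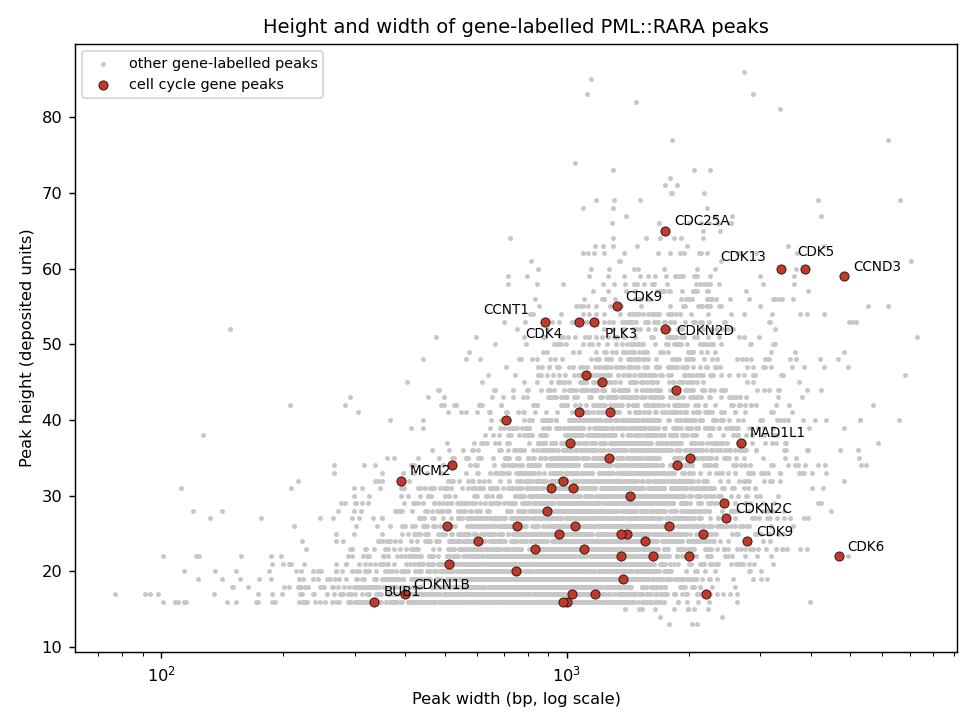
Height (y axis, deposited units) against width (x axis, bp, log scale) of gene-labelled peaks, with the 56 cell cycle peaks in red and the other 7113 in gray. CDC25A is the highest at 65, CCND3 the widest at 4823 bp, and CDK6 is nearly as wide at 4675 bp with a height of only 22.

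Among G1 genes the peaks ranged from among the strongest of the list to among the weakest. CCND3, cyclin D3, had the widest peak of the 60 genes, 4823 bp with a height of 59, at chr6:41905548-41910370, wider than 99.7% and higher than 98.6% of the other labelled peaks. Its apex lay in intron 2 of the canonical transcript, 94 bp upstream of the start site of a shorter transcript. A second CCND3 peak, 605 bp wide and 24 high at chr6:42018063-42018667, stood 108 kb away at the distal start of the gene, where its apex was 66 bp from the start of TAF8 on the other strand and 453 bp from that of CCND3. Between them the gene held 6 further peaks without a label, the highest reaching 53 at chr6:41977681-41978626. CCND3 thus had 8 peaks over its body, the most of the 60 genes.

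The catalytic partners of the D cyclins differed in shape. CDK4 had a compact peak of 1072 bp with a height of 53 (chr12:58145536-58146607, apex 36 bp upstream of a start site), higher than 96.2% of the others. CDK6 had a peak of 4675 bp, wider than 99.6% of the others, with a height of 22 that only 30.9% of them fell below (chr7:92461950-92466624, apex in intron 1). Cyclin D2 (CCND2) lay between these with 1869 bp and a height of 34. Cyclin D1 (CCND1) had a low peak of 1027 bp and height 17 with its apex 2036 bp upstream of its start site, outside the 1 kb window.

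At the G1/S transition a single gene stood far above the rest. CDC25A, the phosphatase that removes the inhibitory phosphates from CDK2, had the highest peak of the 60 genes, 65 over 1749 bp at chr3:48228839-48230587, higher than 99.4% of the other labelled peaks, with the apex 158 bp upstream of its start site. The cyclin E genes, which encode the partners of CDK2, had low peaks. CCNE1 had 16 over 1002 bp (chr19:30301996-30302997, apex 526 bp upstream), one of the 3 lowest of the set. CCNE2 had 22 over 1995 bp, with its apex 39 bp from the start of NDUFAF6, which runs the other way, and 456 bp from its own. CDK2 itself had no label, as described below.

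The licensing genes carried 11 peaks over 8 genes, with a median height of 32 and a median width of 956 bp. CDC6, the loader of the MCM ring, had the highest at 46 (1117 bp), followed by the helicase subunits MCM7 at 44, MCM3 at 41 and MCM5 at 40. The MCM7 apex lay 21 bp from the start of AP4M1 on the other strand and 119 bp from that of MCM7. CDC7, the kinase that fires origins, had the lowest at 16 (979 bp, chr1:91966072-91967050), with its apex 9 bp inside the gene, in the 5′ UTR. The other helicase subunits fell between, with MCM6 at 21 over 513 bp.

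Of the licensing genes, 3 had a pair of peaks. CDT1 had one of 25 over 956 bp (chr16:88868528-88869483, apex 1352 bp upstream) and one of 17 over 2208 bp at its start site (chr16:88869717-88871924, apex 74 bp upstream), only 233 bp apart. MCM2 had one of 32 over 389 bp (chr3:127316300-127316688, apex 834 bp upstream), among the 3 narrowest of the set, and one of 31 over 916 bp (chr3:127316915-127317830, apex 8 bp inside the gene), 226 bp apart. MCM5 had one of 40 over 709 bp at its main start (chr22:35795750-35796458) and one of 34 over 520 bp, 9.61 kb away in intron 6 (chr22:35806072-35806591), next to the start of a shorter transcript.

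The S and G2 cyclins had heights of 22 to 30. Cyclin A2 (CCNA2), the S phase partner of CDK2 in most cells, had a height of 30 over 1435 bp. CCNA1, the A-type cyclin best known from germ cells and myeloid leukemia, had 23 over 834 bp (chr13:37005884-37006717, apex 157 bp upstream of its start site), a height that 35.7% and a width that 29.5% of the other labelled peaks fell below. CCNF, the substrate receptor of an SCF ubiquitin ligase, had 22 over 1633 bp. The CCNA1 peak lay between those of the other 2 cyclins in height and was narrower than both.

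The 9 peaks of the G2/M entry genes spanned heights of 19 to 37 with a median of 26, equal to that of the other labelled peaks. AURKA, a mitotic kinase of the centrosome, was the highest at 37 (1018 bp). Its apex lay 41 bp from the start of CSTF1 on the other strand and 115 bp from that of AURKA. AURKB, the kinase of the chromosomal passenger complex, followed at 31. Cyclins B1 and B2 (CCNB1, CCNB2) had 28 and 26, and their partner CDK1 had 23. WEE1, which restrains CDK1, had 25 and CDC25B, which activates it, had 19. CDC25C, another activator of CDK1, had a pair of peaks 5.23 kb apart, one of 26 over 507 bp (chr5:137667382-137667888) and one of 24 over 1555 bp (chr5:137673116-137674670), with apices 38 and 12 bp from start sites of FAM53C on the other strand.

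The spindle group was more varied, with heights of 16 to 41. CDC20 was the highest at 41 (1072 bp) and BUB3, a checkpoint protein, had 35. BUB1, a checkpoint kinase, had the narrowest peak of the whole set and one of the lowest, 335 bp and 16 (chr2:111435585-111435919, apex 82 bp upstream). BUB1B had 26 and MAD2L1, which binds CDC20, had 17. MAD1L1, the partner of MAD2L1, had a peak of 37 over 2681 bp in intron 16 (chr7:1979166-1981846) and another of 22 over 1357 bp at its main start (chr7:2271729-2273085), 290 kb apart, with 5 unlabelled peaks over the gene, the highest reaching 29.

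Most labelled peaks of the CDK inhibitors were wide. 4 of their 5 peaks passed the upper quartile of width, against 25% of the other labelled peaks, and their median width was 2015 bp. CDKN2D, which encodes p19, had the highest at 52 over 1746 bp (chr19:10678733-10680478, apex 48 bp upstream), higher than 95.8% of the others. CDKN2C, which encodes p18, had 27 over 2468 bp (chr1:51433648-51436115, apex 165 bp upstream of a start site), and CDKN2A, which encodes p16 and ARF, had 29 over 2439 bp (chr9:21993816-21996254, apex 15 bp inside the start of a longer transcript and 19520 bp upstream of the canonical one). CDKN1B, which encodes p27, had one peak of 35 over 2015 bp at its start site (chr12:12869325-12871339, apex 54 bp upstream) and one of 17 over 398 bp, 603 bp further upstream (chr12:12868324-12868721), among the 3 narrowest of the set. CDKN1C and CDKN2B had no label, and the unlabelled peak over the CDKN2B start site was only 919 bp wide.

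The cyclins and CDKs of transcription had 7 peaks, with heights of 20 to 60. CDK13, a kinase of elongating RNA polymerase II, had 60 over 3381 bp (chr7:39988291-39991671, apex 425 bp upstream), higher than 98.8% and wider than 98.6% of the others. CDK9, the kinase of P-TEFb, had a pair of peaks 227 bp apart, one of 55 over 1327 bp with its apex 2404 bp upstream (chr9:130544999-130546325) and one of 24 over 2778 bp at its start site (chr9:130546553-130549330, apex 25 bp upstream), so that the higher of the pair was the farther one. Its cyclin partner CCNT1 had 53 over 882 bp. Cyclin H (CCNH), of the CDK-activating kinase, had 20, and the splicing-linked cyclins CCNL1 and CCNL2 had 26 and 25.

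Of the remaining genes, 2 more had heights above 50. CDK5, a kinase best known from neurons, had 60 over 3856 bp (chr7:150754496-150758351), higher than 98.8% and wider than 99.2% of the others, with its apex 142 bp upstream of its start site and 161 bp from that of SLC4A2 on the other strand. PLK3, a stress-linked polo-like kinase, had 53 over 1166 bp. The cyclin G genes CCNG1 and CCNG2 had 45 and 32, and cyclin I (CCNI) had 25. Only CCNI lay at the median of the list or below it.

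The apex of most of these peaks sat just upstream of the gene it was labelled with. The median signed distance to the nearest annotated start site of the labelled gene was -100 bp (quartiles -162.75 and -41.25) over the 56 peaks and -68 bp (-165 and -1) over the 6926 others whose symbol was in the annotation. Within 1 kb lay 53 of 56 (94.6%, 85.4 to 98.2), against 92.3% of the others, and within 250 bp lay 76.8% against 76.1%. The apex was upstream of that site in 49 of 56 (87.5%, 76.4 to 93.8), against 75.3% of the others. The 3 exceptions to the 1 kb window were CCND1, the distal peak of CDT1 and the distal peak of CDK9. Relative to the canonical transcript, 49 apices were upstream, 3 in a 5′ UTR and 4 in an intron. A coding gene started on the other strand within 1 kb of 9 of the 56 apices (16.1%), against 16.7% of the other peaks. At 6 of the 56 the nearest coding start site was that of another gene. These were the peaks of CCNE2, MCM7 and AURKA and 1 peak each of CCND3, MCM2 and CDC25C.

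**Figure D3:**
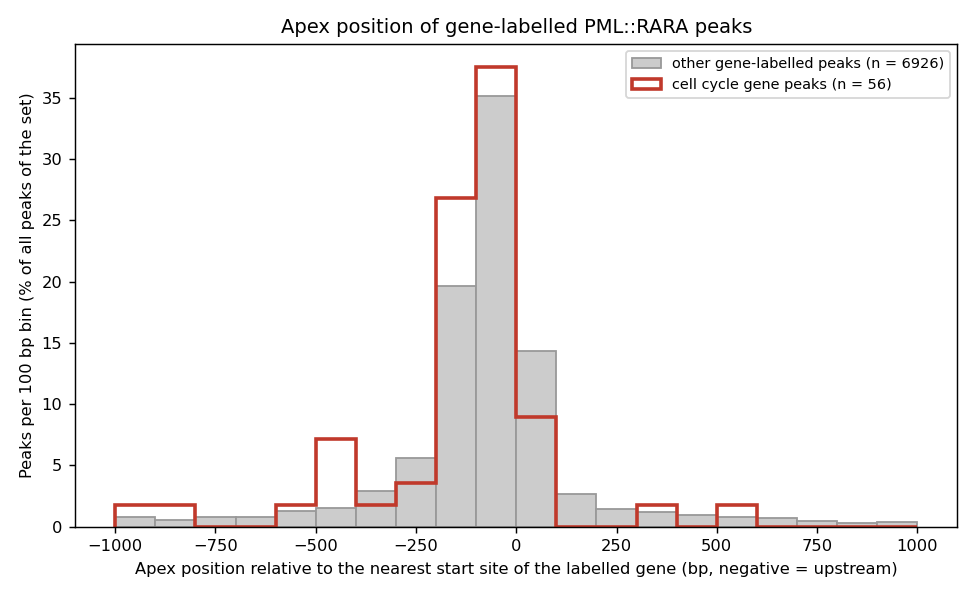
Distribution of the apex position relative to the nearest start site of the labelled gene (x axis, bp, negative upstream) as a share of all peaks of each set in bins of 100 bp (y axis, %), for the 56 cell cycle peaks (red outline) and the 6926 other labelled peaks (gray). Peaks beyond 1 kb are not drawn; both sets pile up just upstream of the start site, with medians of -100 and -68 bp.

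For 8 of the 48 labelled genes (16.7%) there was a pair of labelled peaks, against 543 of 6498 other labelled genes (8.36%). In 4 of them (CDT1, MCM2, CDKN1B, CDK9) the pair stood less than 1 kb apart, and in the other 4 (MCM5, CDC25C, CCND3, MAD1L1) the gap between the peaks was 5.23 to 290 kb. Peaks without a label lay over 5 of the 60 genes, 16 in all, 6 of them in CCND3, 5 in MAD1L1, 2 in CDK6, 2 in CDKN1B and 1 in CDKN2B.

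The 12 genes without a label were not all without a peak. At 5 of them a peak covered a start site but carried another label or none. The CDK2 start site lay 8 bp from the apex of a peak labelled PMEL (24 over 1053 bp, chr12:56360028-56361080). That of CCNK, the cyclin of CDK12 and CDK13, lay 110 bp from the apex of a peak labelled SETD3 (40 over 2140 bp, chr14:99946102-99948241). That of CCNT2, a cyclin of CDK9, lay 169 bp from one labelled CCNT2-AS1 (49 over 1557 bp, chr2:135675680-135677236), and that of the helicase subunit MCM4 123 bp from one labelled PRKDC (26 over 1591 bp). CDKN2B, which encodes p15 and which the study names, lay under a peak with no label whose apex was 41 bp upstream of its start site (16 over 919 bp, chr9:22008643-22009561), a height that 0.197% of the labelled peaks other than those of the 60 genes fell below.

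At the other 7 genes no peak covered a start site. The nearest apex was 6902 bp away for CDKN1C, which encodes p57, 16598 bp for CDK7, the CDK-activating kinase, and 36215 bp for PLK1, the main mitotic polo-like kinase. It was 59104 bp away for CDK12, 134361 bp for CDC27, a subunit of the anaphase promoting complex, 313628 bp for the Mediator kinase CDK8 and 579353 bp for PLK2. In mitotic entry PLK1 was the only gene of 9 without a peak at its start, while its relative PLK3 had one among the highest of the set.

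**Figure D4:**
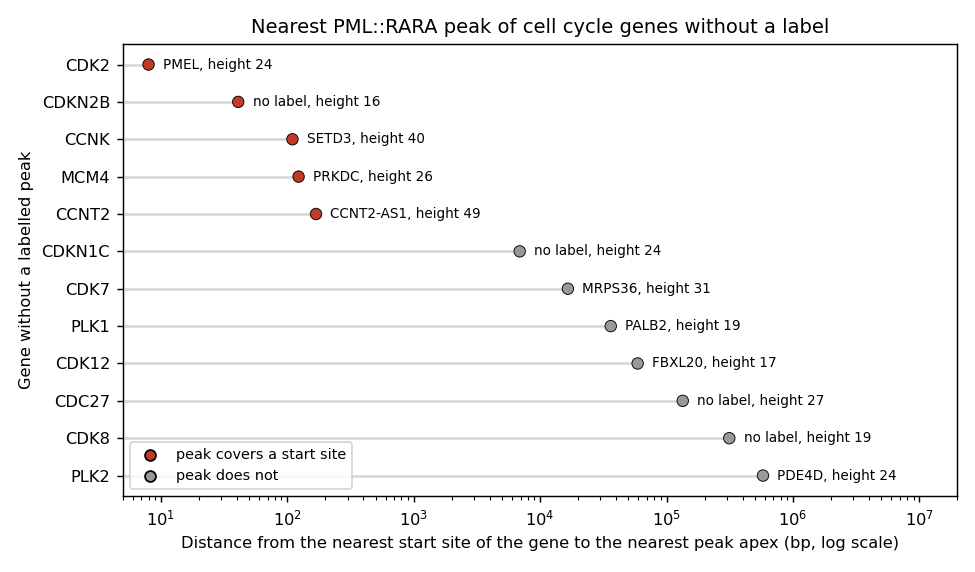
Distance from the nearest start site of each of the 12 genes without a labelled peak (y axis) to the nearest peak apex (x axis, bp, log scale), with the label and height of that peak beside each point. The 5 red points, from 8 to 169 bp, are peaks that cover a start site; the 7 gray points start at 6902 bp.

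The sequence under the peaks was then compared in windows of 200 bp on each side of the apex, 401 bp in all. E2F words were present at 12 of the 56 peaks (21.4%, 12.7 to 33.8), against 5.78% of the other labelled peaks. Centring the window on the middle of the peak instead gave 6 of 56 (10.7%, 5.00 to 21.5), against 4.77%. The CHR was present at 20 (35.7%, 24.5 to 48.8), against 13.7%, and the CCAAT box at 34 (60.7%, 47.6 to 72.4), against 44%. The other families were at or below the level of the other peaks. GC boxes stood at 39 (69.6%, 56.7 to 80.1), against 76.2%, ETS words at 28 (50%, 37.3 to 62.7), against 60.2%, and retinoid hexamers at 20 (35.7%, 24.5 to 48.8), against 45.7%. The median GC content of the windows was 62.1% for the 56 and 64.3% for the others, and its part in these shares was not tested.

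E2F words were most frequent in the licensing group and CHR words in the G2/M and spindle groups, but some peaks held both. Those were peaks of MCM6, CDK1, BUB3 and CDKN2D. E2F words were found at 1 peak of each of the 8 labelled licensing genes (CDC6, CDT1, CDC7, MCM2, MCM3, MCM5, MCM6, MCM7), in 8 of 11 peaks (72.7%, 43.4 to 90.3). Outside this group they were found at 4 of 45 peaks (8.89%), those of CDC25A, CDK1, BUB3 and CDKN2D. For CDT1 and MCM2 it was the peak at the start site that held the word and the more distal peak that did not, and for MCM5 it was the upstream peak and not the intronic one.

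Only the words TTTGAA and TTCGAA were searched for the CHR, so a peak without them is not shown to lack the element. They were found at 8 of 9 G2/M entry peaks, all but that of CCNB1. Among the spindle peaks they were found at 5 of 7, those of BUB1, BUB1B, BUB3, MAD2L1 and CDC20. Together these were 13 of 16 (81.3%, 57.0 to 93.4), against 7 of the other 40 cell cycle peaks (17.5%). Of these 13 peaks, 10 also held a CCAAT box, as did 6 of the 7 CHR peaks of the other function groups, so the pairing was not particular to the mitotic groups. The CCAAT box was present at 44% of the other labelled peaks, counted with or without a CHR. The median GC content was 60.1% both at the 16 mitotic peaks and at the 11 licensing peaks, and its part in the motif shares was not tested. The division by function was counted after the motif shares of the whole set had been seen. With 100 bp on each side of the apex, E2F words stood at 54.5% of licensing peaks and the CHR at 56.3% of G2/M and spindle peaks, against 3.42% and 6.69% of the other labelled peaks.

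The same words were also counted in promoter sequences chosen without regard to the peaks. In RefSeq promoter sequences of GRCh38, matched by symbol whether or not the gene had a peak, an E2F word was present in 6 of the 7 licensing genes found in the table (85.7%), all but CDC7, against 2.79% of 27305 promoters. The CHR was present in 7 of the 13 mitotic genes found there (53.8%), PLK1 among them, against 16.6% of all promoters. The 27305 promoters stand for all symbols of that set, the genes counted here among them. Both the sequences and the comparison set differ from those of the 401 bp peak windows, so the shares cannot be compared directly with those at peaks.

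**Figure D5:**
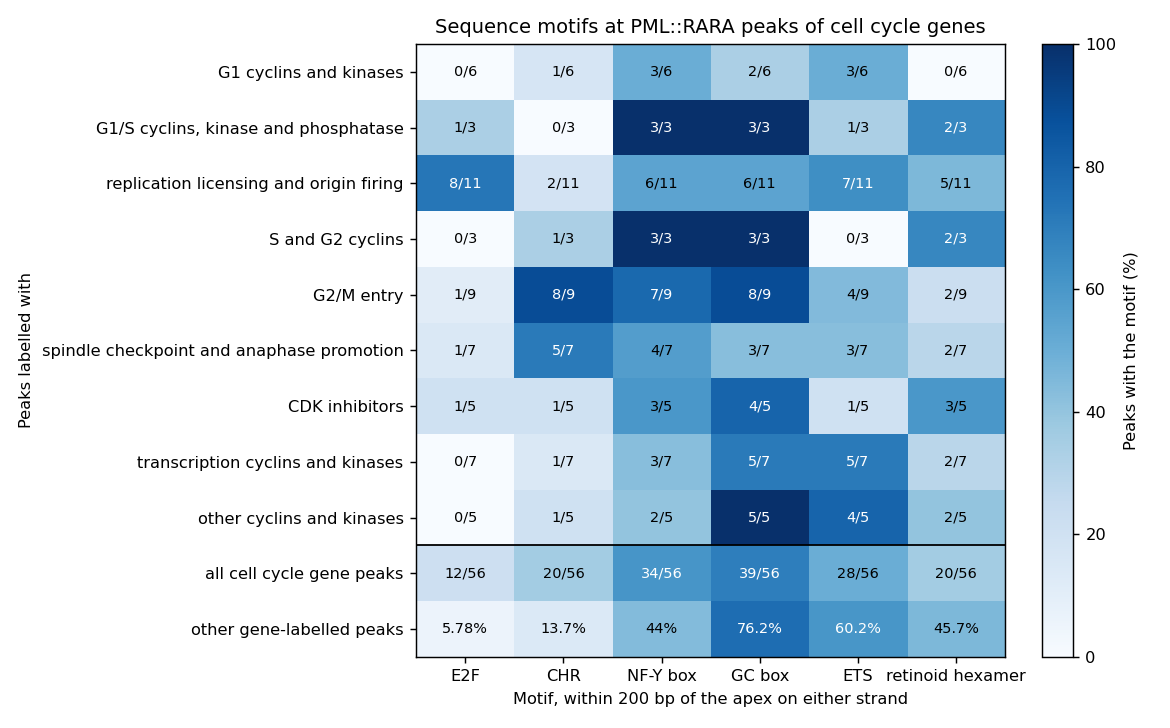
Number of peaks with each of the 6 motif families (x axis; the NF-Y box is the CCAAT box) within 200 bp of the apex, out of the peaks labelled with genes of each function group (y axis), with all 56 cell cycle peaks and the share among the other 7113 labelled peaks in the bottom 2 lines; color gives the share in %. E2F words gather in the licensing group, 8 of 11, and CHR words in the G2/M and spindle groups, 8 of 9 and 5 of 7.

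The heights and the words were then set side by side. Of the 9 peaks above 50, 2 held an E2F word (CDC25A and CDKN2D), against 21.4% of all 56 and 5.78% of the other labelled peaks. A CHR was found at 1 of the 9 (CDKN2D), against 35.7% and 13.7%. Retinoid hexamers were found at 3 of the 9 (CDC25A, CDKN2D and the distal peak of CDK9), against 35.7% and 45.7%. They were found in the 401 bp windows of none of the 6 G1 peaks. For the wide peaks of CCND3 (4823 bp) and CDK6 (4675 bp) such a window covers only a small part of the peak. A word match is a description of these letters and does not show that a factor was bound there.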

How the data were processed

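Peaks came from the list the authors deposited for the induced, anti-PML::RARA Cut&Run libraries. Per the study's methods and the submitters' processing notes, reads were trimmed with Trimmomatic, aligned to hg19 with Bowtie2, cleared of duplicates with SAMtools and called with SEACR against the uninduced controls, and peaks reproducible between the 2 replicates were kept. Versions are not given in the sources used here. The deposited signal columns, a largest value (height) and a total, are in the authors' units, and the authors labelled a peak with a gene where its apex overlapped a promoter in UCSC known genes. The total was below height times width in all 15412 peaks, as a sum over the peak must be. The apex is the midpoint of the deposited interval of largest signal, and 34 peaks without the end of that interval, none of them among the 56, were given its start.

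Start sites came from GENCODE release 44 mapped to GRCh37, and sequences from GRCh37 and, for promoters, RefSeq GRCh38, in Python 3.11.15 with pandas 2.3.3 and pysam 0.24.0. No test was made, since replicate values were lacking and the genes were chosen. The procedures were tested on simulated peaks. The genes, function groups, further lists and motif words were chosen with earlier results of these data known. Values were given in full for the 5 highest and 3 lowest peaks, the 5 widest and 3 narrowest, genes with a pair of peaks or none, CDK inhibitors, and CCNA1, CCNE2 and CDKN2B. Other genes were named by their place in a group, and the 9 peaks above 50 and the genes behind each motif count were picked after their values were seen.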

Additional observations from a re-analysis of the deposited data

How the results depend on the processing

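No paired analysis was possible because each peak has 1 value, and leaving out a replicate was not an option either. The number of genes counted was 35 with labelled peaks at or above the median height only. It was 52 with any apex within 1 kb of a start site, whatever the label, against 39.2% of protein-coding genes. The share of protein-coding genes passing the height cut is not given here, so the 35 has no comparison. The log2 difference in height stayed between 0.08 and 0.18 under 6 alternatives and was 0.34 for total signal, which adds width to height, and that in width stayed between 0.12 and 0.29. The share with an apex near a start site fell to 76.8% within 250 bp. Motif shares moved with the window by construction. Within 100 bp of the apex they were 23.2% for the CHR (6.69% of the other labelled peaks), 32.1% for ETS (42.1%), 12.5% for E2F (3.42%) and 21.4% for the retinoid hexamer (27.7%). Within 500 bp they were 55.4% for the CHR (34.3%), 80.4% for CCAAT (66.2%), 87.5% for GC boxes (88.1%), and 78.6% for both ETS (84.3%) and the retinoid hexamer (81.0%). Centred on the middle of the peak, E2F stood at 10.7% (4.77%). Chosen after seeing the data, the same windows gave an E2F word at 54.5% to 72.7% of licensing peaks (3.42% to 10.6% of the other labelled peaks). They gave a CHR at 56.3% to 100% of G2/M and spindle peaks (6.69% to 34.3%), both upper values with 500 bp on each side of the apex.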
